A study of Homo sapiens with 4 samples.

Results

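The 10 S100 genes S100A2, S100A3, S100A4, S100A6, S100A8, S100A9, S100A10, S100A11, S100A16 and S100P were followed in SUM159 cells with and without CRISPR targeting of NOS2, the gene of inducible nitric oxide synthase (iNOS). They were picked by symbol, each matched by GENCODE release 29 to 1 of the 57500 gene rows, and all 10 passed the filter on low counts. SUM159 is a metaplastic, triple-negative breast cancer cell line. The parental cells (genotype Parental Control, 1 library) were compared with 3 NOS2KO clones (genotype NOS2KO, 1 library each, numbered 1, 5 and 6). The clones came from cells transfected with a NOS2 double nickase plasmid, were picked after puromycin selection and screened for iNOS protein and for nitrite and nitrate. Each clone is 1 line grown from selected cells and the label of the parental sample names no transfection or selection, so clonal history and loss of NOS2 cannot be told apart. No drug was named for any of the 4 libraries, and all were grown in the same serum-containing medium.

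S100 proteins are small EF-hand calcium-binding proteins of vertebrates. Most form dimers, and calcium opens a surface with which they hold target proteins such as annexins and myosin. Some leave the cell and act on receptors such as RAGE (gene AGER) and TLR4. Most of their genes lie side by side within the epidermal differentiation complex on chromosome 1. In breast cancer the family is known above all for S100A4, linked to migration and metastasis, and for S100A8 and S100A9, which pair to form calprotectin, a protein abundant in neutrophils and monocytes.

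The libraries held 90467395 to 122171287 counts on genes. NOS2 had 2 counts in parental cells, against 3 for clone 1, 1 for clone 6 and 18 for the library labelled clone 5. NOS2 mRNA was thus too low to check the labels, and the clones had been screened by iNOS protein and by nitrite and nitrate, not by mRNA. Since clone 5 had the most NOS2 counts, it is called the library labelled clone 5. Of the markers of the cell line, PGR had 0 to 3 counts and ESR1 9 to 79, CDH1 had 1 to 44, VIM had 1655 to 3855 CPM, and ERBB2 had 48.3 to 106 CPM. CPM are counts scaled to a common library size after edgeR's TMM method. Intervals of ratios below are exact 95% Clopper-Pearson intervals and, like the floor of 3 counts, cover counting error only. All comparisons with the clones share the single parental library. Values given for the clones without their names are in the order clone 1, labelled clone 5, clone 6.

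The promoters of the genes that stood out differed in their letters close to the start site, and short stretches are shown so that the TATA box, the letters TATAAA read on both strands, can be seen where it is present. RefSeq windows of 250 bases before to 50 bases after the start (GRCh38.p14) were found for all 10 genes. Bases -40 to -11 from the start are printed 5′ to 3′ with TATAAA in capitals, only for the 4 genes with these letters in a window. These are S100A4 and S100P, with steady differences between clones and parental cells, and the calprotectin pair. S100A10, also steady, lacks the letters and is not printed. For S100A8 the second RefSeq start is shown, and the window of its first start lacks the letters.
S100A4 (chr1:153545817-153545846, minus strand): tggctggggTATAAAtaggtcagacctctg
S100P (chr4:6693838-6693867, plus strand): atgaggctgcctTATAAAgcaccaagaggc
S100A8 (second RefSeq start, chr1:153391084-153391113, minus strand): agcctaaccgcTATAAAaaggagctgcctc
S100A9 (chr1:153357814-153357843, plus strand): caggagctgccTATAAAtgccgagcctgca

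The capital letters began at -31 in S100A4, -28 in S100P and -29 in S100A8 and S100A9, and they were absent from the window of S100A10. In all, 4 of the 10 genes had TATAAA in a window, against 3819 of 27305 genes with RefSeq windows. The letters TGANTCA, to which AP-1 (JUN and FOS) can bind, were also searched on both strands because the study silenced JUN and FOS. They were present in 2 of the 10 genes, S100A2 and S100A3, against 9.37% of all genes, and are capitalised here in 30 bases each.
S100A2 (chr1:153565878-153565907, minus strand): ggagtgggctgTGACTCAcaggcatgtcat
S100A3 (chr1:153549465-153549494, minus strand): ggaatcaggagTGAGTCActgggctagcat

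A form of the C/EBP motif, TTGCNNAA, was present in the window of S100A11 alone among the 10, against 12.7% of all genes. By the GENCODE annotation the 30 bases printed first lie in an exon of the gene itself for S100A4, S100A8 and S100P, through transcripts that begin further upstream, and those of S100A9, S100A2 and S100A3 lie in none. For S100A4, steady across the clones, and S100A9, which was not, the longest run before the start outside the gene's own exons is given too, with TATAAA in capitals where it occurs.
S100A4 (chr1:153545886-153546056, minus strand, bases -250 to -80): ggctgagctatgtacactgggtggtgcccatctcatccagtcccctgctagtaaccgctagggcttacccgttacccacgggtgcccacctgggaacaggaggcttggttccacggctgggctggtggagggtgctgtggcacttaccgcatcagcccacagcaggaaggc
S100A9 (chr1:153357604-153357853, plus strand, bases -250 to -1): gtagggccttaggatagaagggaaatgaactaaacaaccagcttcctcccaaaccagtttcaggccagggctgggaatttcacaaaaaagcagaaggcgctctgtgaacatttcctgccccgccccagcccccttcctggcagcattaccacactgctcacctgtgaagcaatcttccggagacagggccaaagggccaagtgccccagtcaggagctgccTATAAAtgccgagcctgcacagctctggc

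These matches are descriptions of the letters, and binding was not measured.

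Together the 10 genes took 0.0663% of the counts in the parental library and 0.140% to 0.187% in the clones. S100A4 and S100A10 were higher, and S100P was lower, in every clone by more than 1 on the log2 scale. S100A3, S100A6 and S100A11 were higher in every clone by less in at least 1 of them. S100A2, S100A8, S100A9 and S100A16 had no shared direction, and there clone 1 was the highest clone each time. Higher in all 3 clones were thus 5 of the 10 genes, against 28.6% of the 22511 genes tested, and 1 was lower in all 3, against 30.5%. By more than 1 on the log2 scale, 2 genes were higher in all 3 clones against 7.67%, and 1 was lower against 6.29%.

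With the quasi-likelihood test of edgeR and Benjamini-Hochberg adjustment over all genes tested, no S100 gene had an adjusted p under 0.05, and 0.00444% of all genes had one. The study's volcano plot, of genes regulated by AP-1, called genes at p under 0.05 with a log2 fold change above 1 or below -1. Its p-values came from a Wald test. With the unadjusted p of the edgeR test in their place, 3 of the 10 met this criterion against 9.58% of all genes. These were S100A4 and S100A10 on the higher side (2 genes, against 4.24%) and S100P on the lower side (1 gene, against 5.34%), and no other member had an unadjusted p under 0.05. With DESeq2's Wald test, an alternative, the same 3 genes had an adjusted p under 0.05, as did 4.86% of all genes. By that test 4 of the 10 met the criterion, with S100A3 in addition, against 12.1% of all genes. The median log2 fold change was 0.80 over the 10 genes and 0.10 over all genes tested, and without clone 1 it was 0.02 over the 10. Spread could be estimated among the clones only, since the parental side has 1 library, and the smallest p that exact permutation of these labels allows is 0.25. In bulk RNA, fewer expressing cells and less RNA per cell cannot be told apart.

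**Figure D1:**
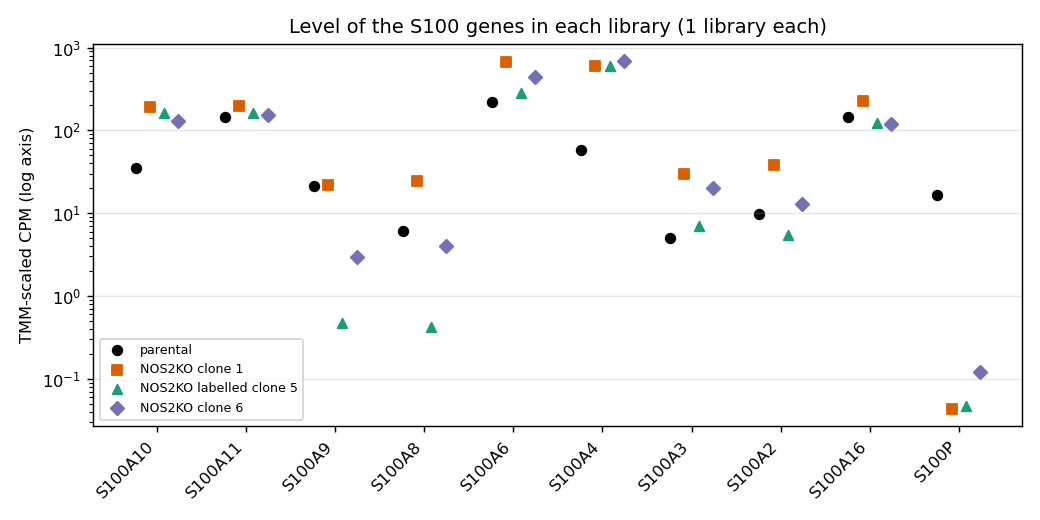
TMM-scaled CPM (log axis) of each S100 gene in the parental library and the 3 NOS2KO clones, 1 point per library, with the genes in their order on chromosome 1 and S100P of chromosome 4 last. The 3 clones lie close together for S100A4 (592 to 683) and S100A10 (129 to 192), far above the parental 58.4 and 35.6, while S100A9 runs from 0.469 in the library labelled clone 5 to 22.2 in clone 1.

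S100A4 (ENSG00000196154, GRCh38 chr1:153543613-153550136, minus strand), also called metastasin, binds the heavy chain of non-muscle myosin and is a common marker of fibroblast-like cells. It had 58.4 CPM in parental cells, against 593 for clone 1, 683 for clone 6 and 592 for the library labelled clone 5. All 3 clones lay about the same distance above the parental cells. The level in the clones was 623 ± 52.0 CPM (SD, n = 3), and the ratios to the parental library were 10.2-fold, 10.1-fold and 11.7-fold. The fitted log2 fold change was 3.41 (standard error 0.31, unadjusted p = 0.000382, adjusted p = 0.259 in the edgeR quasi-likelihood fit). Clone 1 and the library labelled clone 5 differed by a log2 ratio of 0.00 (95% interval -0.01 to 0.02), so their difference was within counting error, and clone 6 was 1.15-fold above each. Over the other tests, filters and scalings the adjusted p of S100A4 ran from 2.50e-18 with DESeq2's Wald test to 0.271, and with a clone left out it reached 0.726.

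S100A3, S100A2 and S100A6 are the neighbours of S100A4. S100A3 (ENSG00000188015, chr1:153547329-153549372, minus strand), best known from the hair cuticle, lies within the span of S100A4 but shares no exon base with it. It had 4.97 CPM in parental cells, against 29.7 for clone 1, 20.002 for clone 6 and 6.93 for the library labelled clone 5. Every clone was above the parental level, but the library labelled clone 5 stood much nearer to it than the others, with a log2 ratio of 0.48 (0.31 to 0.65) against 2.58 (2.44 to 2.72) in clone 1. The log2 fold change of S100A3 was 1.93 (standard error 0.82, adjusted p = 0.498 in the edgeR quasi-likelihood fit), and the gene did not meet the criterion, which it met without the library labelled clone 5 and with DESeq2's Wald test.

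S100A2 (ENSG00000196754, chr1:153561108-153567890, minus strand), typical of basal epithelial cells, had 9.88 CPM in the parental library. Its level was 38.0 CPM in clone 1, 12.95 for clone 6 and 5.44 for the library labelled clone 5. The parental level lay inside the range of the clones, which differed among themselves by up to 6.99-fold. The log2 fold change of S100A2 was 0.93 (standard error 1.08, adjusted p = 0.773 in the edgeR quasi-likelihood fit) and -0.10 without clone 1.

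S100A6 (ENSG00000197956, chr1:153534599-153536244, minus strand), or calcyclin, named for its tie to the cell cycle, was the most abundant of the 10 per base in the parental cells. It had 222 CPM there, 678 in clone 1, 441 for clone 6 and 281 for the library labelled clone 5. The 3 clones were higher than the parental library, in the same order among themselves as for S100A3 and S100A2. For S100A6 the log2 fold change was 1.07 (standard error 0.55, adjusted p = 0.539 in the edgeR quasi-likelihood fit). S100A6 shares 23 exon bases with the antisense gene BX470102.1, which had 26 to 51 counts, while S100A6 had 20074 in the parental library. How many reads of S100A6 were lost or shared at these bases was not tested.

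S100A10 and S100A11 lie apart from the other members, over a megabase towards the start of chromosome 1. S100A10 (ENSG00000197747, chr1:151982915-151994390, minus strand), or p11, has lost calcium binding and forms a complex with annexin A2 that holds plasminogen at the cell surface. It had 35.6 CPM in parental cells, against 192 for clone 1, 129 for clone 6 and 161 for the library labelled clone 5. The clones stood well above the parental level, at 161 ± 31.5 CPM (SD, n = 3) and 3.63-fold to 5.40-fold over it. Its log2 fold change was 2.18 (standard error 0.34, unadjusted p = 0.00291, adjusted p = 0.281 in the edgeR quasi-likelihood fit). Over the other tests, filters and scalings the adjusted p of S100A10 ran from 0.000109 with DESeq2's Wald test to 0.301, and with a clone left out it reached 0.726.

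S100A11 (ENSG00000163191, chr1:152032506-152047907, minus strand), or calgizzarin, which binds annexin A1, had 144 CPM in the parental library. It had 195 CPM in clone 1, 155 for clone 6 and 164 for the library labelled clone 5. The clones were above the parental library, yet the nearest of them by a log2 ratio of only 0.10 (0.07 to 0.14). For S100A11 the log2 fold change was 0.25 (standard error 0.30, adjusted p = 0.767 in the edgeR quasi-likelihood fit), which did not exceed the spread between clones. Upper quartile scaling moved the median of all genes up by 0.10 on the log2 scale, which is as much as that smallest ratio. The log2 fold change of S100A11 was then 0.35, and over the other tests, filters and scalings it lay between 0.25 and 0.35. Counts on the processed pseudogenes of S100A11 are not reported here.

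S100P (ENSG00000163993, chr4:6693069-6697170, plus strand), an S100 protein first found in placenta, acts on RAGE and binds ezrin, and is often raised in carcinomas. It had 1498 counts in parental cells, against 5 for clone 1, 12 for clone 6 and 5 for the library labelled clone 5. In CPM these were 16.6 in the parental library and 0.0436, 0.0469 and 0.122 in the clones. Every clone was far below the parental cells, by 380-fold, 353-fold and 136-fold. The log2 ratios were -8.57 (95% interval -10.20 to -7.34), -8.46 (-10.09 to -7.24) and -7.09 (-8.04 to -6.28), so the intervals of the clones overlap. The fitted log2 fold change was -7.86 (standard error 0.74, unadjusted p = 0.000169, adjusted p = 0.259 in the edgeR quasi-likelihood fit), the largest in size of the 10 genes. Over the other tests, filters and scalings the adjusted p of S100P ran from 6.14e-21 with DESeq2's Wald test to 0.271, and with a clone left out it reached 0.720.

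The calprotectin pair split the clones. S100A9 (ENSG00000163220, chr1:153357854-153361027, plus strand) had 21.5 CPM in parental cells, against 22.2 for clone 1, 2.97 for clone 6 and 0.469 for the library labelled clone 5. Clone 1 and the parental library differed by less than counting error, with a log2 ratio of 0.04 (95% interval -0.04 to 0.13), whereas the library labelled clone 5 was 45.9-fold and clone 6 7.24-fold below the parental level. With library size scaling alone, clone 1 was just below the parental library too, so that S100A9 was then lower in all 3 clones. S100A8 (ENSG00000143546, chr1:153390032-153391188, minus strand) had 6.06 CPM in parental cells, against 24.6 for clone 1, 4.04 for clone 6 and 0.422 for the library labelled clone 5. Clone 1 was thus 4.06-fold above the parental cells for S100A8, and the library labelled clone 5 was 14.4-fold below them.

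The clones kept the same order for both genes, clone 1 above clone 6 and clone 6 above the library labelled clone 5. Between clone 1 and the library labelled clone 5 the ratio was 58.3-fold for S100A8 and 47.3-fold for S100A9. Per kilobase of exon, S100A9 exceeded S100A8 by 6.19-fold in the parental library and by 1.28-fold to 1.94-fold in the clones. The lengths were all annotated exon bases, 1006 for S100A8 and 577 for S100A9. In CPM, without the length, S100A8 was above S100A9 in clone 1 (24.6 against 22.2) and clone 6 (4.04 against 2.97). It was below S100A9 in the library labelled clone 5 and in the parental library, so the direction in clones 1 and 6 depends on the length used. The log2 fold change over the clones was 0.68 for S100A8 (standard error 1.93, adjusted p = 0.915) and -1.33 for S100A9 (standard error 1.89, adjusted p = 0.792), both in the edgeR quasi-likelihood fit, and neither exceeded the spread between clones. Without clone 1 it was -1.44 for S100A8 and -3.64 for S100A9, and S100A9 then met the criterion.

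Since calprotectin is best known from myeloid cells, a list of 10 myeloid markers was read beside it. Their summed level was 19.0 CPM in the parental library and 56.2 to 112 CPM in the clones, and of the 9 tested 2 were higher and 3 lower in every clone, against 28.6% and 30.5% of all genes tested. Most of the sum in the clones was PTPRC, which encodes the leukocyte phosphatase CD45, with 4.45 CPM in the parental library and 68.4, 105 and 41.7 in the clones (log2 fold change 4.01, standard error 0.56, adjusted p = 0.282 in the edgeR quasi-likelihood fit). PTPRC alone of the 9 tested met the criterion, against 9.58% of all genes tested, and was highest in the library labelled clone 5. Without PTPRC the other 9 markers summed to 14.5 CPM in parental cells, against 3.18 for clone 1, 14.5 for clone 6 and 6.90 for the library labelled clone 5. Most of what was left was CD14, a monocyte receptor for lipopolysaccharide, with 12.8 CPM in the parental library and 2.29, 4.28 and 11.3 CPM in the clones, and ELANE, neutrophil elastase, had 51 to 228 counts. The other markers had low counts and no common pattern. ITGAM had 32 counts in the parental library and 4, 13 and 1 in the clones, and FCGR3B had 16 and then 0, 8 and 5. CSF1R had 19 and then 16, 57 and 29, MPO 21 and then 9, 44 and 18, and CD68 13 and then 9, 18 and 29. TYROBP had 0 and then 0, 6 and 2. LYZ, a defining myeloid product, had 1 and then 4, 49 and 3. This remaining sum was taken after its values were seen. It was lowest in clone 1, where S100A8 was highest and S100A9 was within counting error of the parental level. With PTPRC the sum in clone 1 was 71.6 CPM, above the parental 19.0 CPM. The part of such cells in the result was not tested.

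**Figure D2:**
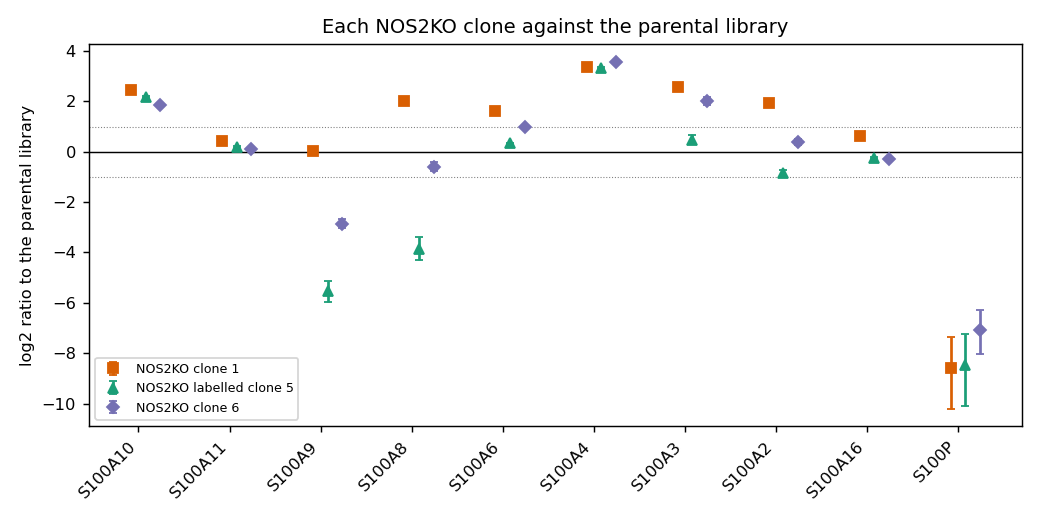
Log2 ratio of each NOS2KO clone to the parental library for the S100 genes, with exact 95% intervals from the counts as bars. Dotted lines mark 1 and -1, and S100A4 (3.34 to 3.55), S100A10 (1.86 to 2.43) and S100P (-8.57 to -7.09) are the genes with all 3 clones past one of them.

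S100A16 (ENSG00000188643, chr1:153606886-153613145, minus strand), a broadly expressed member, had 144 CPM in the parental library and 224, 122 and 119 CPM in clone 1, the library labelled clone 5 and clone 6. Clone 1 was above the parental level and the other clones were a little below it. The log2 fold change was 0.10 (standard error 0.48, adjusted p = 0.946 in the edgeR quasi-likelihood fit) and -0.26 without clone 1. The library labelled clone 5 and clone 6 were within counting error of each other for S100A16, with a log2 ratio of 0.03 (-0.01 to 0.06).

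Set against the parental library clone by clone, clone 1 had the most genes on the higher side. By more than 1 on the log2 scale, 6 of the 10 were higher in clone 1 and 1 was lower, against 17.1% and 20.2% of all genes tested. In the library labelled clone 5, 2 were higher and 3 lower, against 21.3% and 14.7%. In clone 6, 3 were higher and 2 lower, against 19.3% and 16.7%. The differences between the clones themselves were tested by no model here, since each is 1 library.

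The order of the levels, in CPM per kilobase of all annotated exons of a gene, was not the same in clones and parental cells. In the parental library S100A6 (229) and S100A11 (212) led, followed by S100A16 (84.7), S100A4 (57.0), S100A9 (37.3), S100A10 (23.1) and S100P (12.9), with S100A2, S100A8 and S100A3 last at 6.30, 6.03 and 5.20. In the clones S100A4 stood at 608 ± 50.8 (SD, n = 3) and S100A6 at 481 ± 205, a pair whose order differed between clones: S100A6 was first in clone 1 and S100A4 in the other two. S100A11 came next in every clone at 252 ± 31.0, and S100A10 at 104 ± 20.4 and S100A16 at 91.0 ± 35.0 did not differ beyond their spread. Below them, S100A3 (19.8 ± 11.9), S100A9 (14.8 ± 20.6), S100A2 (3.47 to 24.3) and S100A8 (9.64 ± 12.98) overlapped widely in the clones. S100P was last in each, at 0.0553 ± 0.0345.

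Most neighbours of the S100 genes on chromosome 1 had few or no counts. Between S100A10 and S100A1 (chr1:151982915-153632039) the files hold 17 S100A genes, 2 S100 pseudogenes with 0 counts in every library and 69 other genes, among them the filaggrin, late cornified envelope and small proline-rich genes of the outer skin. Of the other 69 genes, 55 had 0 counts in every library, 3 passed the filter on low counts and none of these 3 reached 10 CPM in any library. Of the 17 S100A genes 13 were tested, of which 8 were higher in all 3 clones (28.6% of all genes tested were) and none lower in all 3 (30.5%), and 10 of the 13 reached 10 CPM. The 13 include 9 of the members described above. A list of 7 S100-fused genes such as filaggrin had 6 with at most 3 counts in every library, and a list of cornified envelope genes had 23 of 24.

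**Figure D3:**
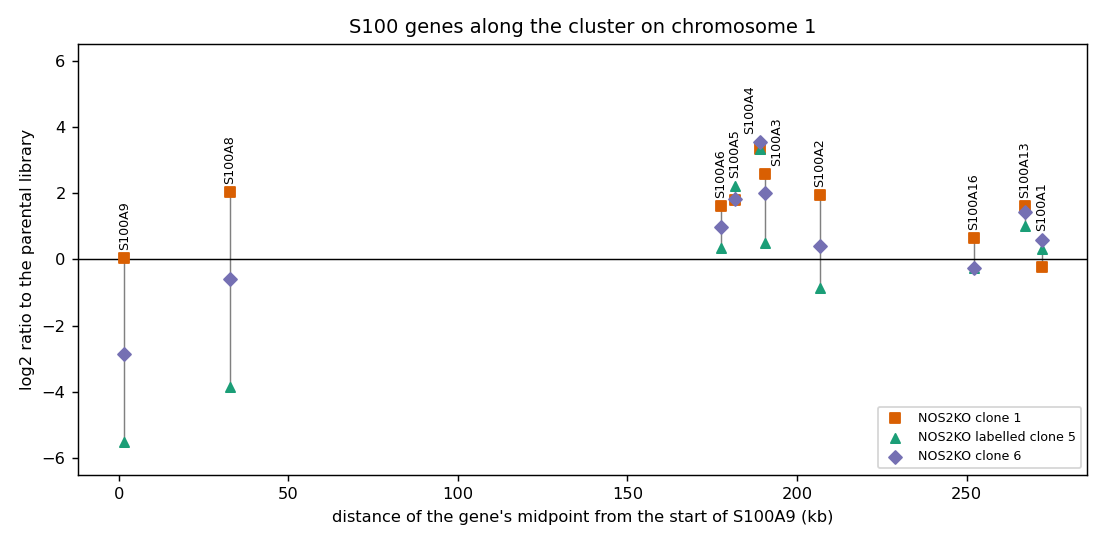
Log2 ratio of each NOS2KO clone to the parental library along the denser end of the chromosome 1 cluster, from S100A9 to S100A1, plotted against the distance of each gene's midpoint from the start of S100A9 in kilobases (S100A10 and S100A11 lie outside the plot, and S100A12, with 1 parental count, is not drawn). Clones lie far apart at S100A9 and S100A8 (-5.52 to 0.04 and -3.84 to 2.02) and close together at S100A4 (3.34 to 3.55).

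Of 11 other S100 genes on a list chosen with earlier results of these data known, 4 were tested, 3 were higher in all 3 clones (28.6% of all genes tested were) and 1 met the criterion (9.58%). This gene, S100A13 (chr1), which takes part in the release of growth factors without a signal peptide, had 21.5 CPM in parental cells, against 65.8 for clone 1, 58.0 for clone 6 and 43.5 for the library labelled clone 5. All 3 clones were above the parental level, and the log2 fold change was 1.38 (standard error 0.34, unadjusted p = 0.0151, adjusted p = 0.343 in the edgeR quasi-likelihood fit). S100A13 shares 10.6% of its exon bases with S100A1 on the other strand and 24.2% with AL162258.1 (79 to 89 counts) on its own strand, and without a stated strand setting reads of S100A13 and S100A1 cannot be told apart there. S100A1 itself had 0.885 CPM in the parental library and 0.759, 1.10 and 1.34 CPM in the clones, on both sides of the parental level. The others higher in every clone were low: S100A5 had 7 counts in parental cells and 31, 38 and 27 in the clones, and S100A12, a neighbour and relative of the calprotectin genes, had 1 count and 44, 2 and 7. S100A12 was highest in clone 1 and lowest of the clones in the library labelled clone 5, at 2 counts there. This order was not particular to S100A8, S100A9 and S100A12, since S100A2, S100A3, S100A6 and S100A13 had it too. S100A7, S100A7A, S100A7L2, S100G and S100Z had at most 3 counts in every library.

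Of 7 cell surface proteins reported to receive extracellular S100 proteins, 4 were higher in all 3 clones (28.6% of all genes tested were), none was lower in all 3 (30.5%), and 1 met the criterion (9.58%). This was ALCAM, an adhesion molecule of the immunoglobulin family, with 4.51 CPM in the parental library and 20.8, 14.5 and 21.9 CPM in the clones (log2 fold change 2.08, standard error 0.40, adjusted p = 0.327 in the edgeR quasi-likelihood fit). AGER, the gene of RAGE, had 4.30 CPM in the parental library and 2.91, 8.31 and 5.54 in the clones, without a shared direction. The median log2 fold change of the receptors was 0.61, against 0.10 over all genes.

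Among 21 intracellular partners, 10 were higher and 4 lower in every clone, against 28.6% and 30.5% of all genes tested. The criterion was met by 4, all of them higher, against 4.24% of all genes on that side. The median log2 fold change of the partners was 0.32. Called were the annexins ANXA2, ANXA6 and ANXA11 and the scaffold gene AHNAK. ANXA2, whose protein pairs with S100A10, had 522 CPM in parental cells, against 1367 for clone 1, 1001 for clone 6 and 1333 for the library labelled clone 5. The log2 fold change of ANXA2 was 1.24 (standard error 0.36, adjusted p = 0.372 in the edgeR quasi-likelihood fit). AHNAK, which binds the complex of S100A10 and annexin A2, had 551 CPM in the parental library and 1182, 1212 and 1009.9 CPM in the clones and a log2 fold change of 1.04. ANXA6 had a log2 fold change of 2.32 and ANXA11, a partner of S100A6, of 1.05. Of the partners outside the annexins, MYH9, the myosin heavy chain that S100A4 binds, had a log2 fold change of -0.05 (standard error 0.42).

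**Figure D4:**
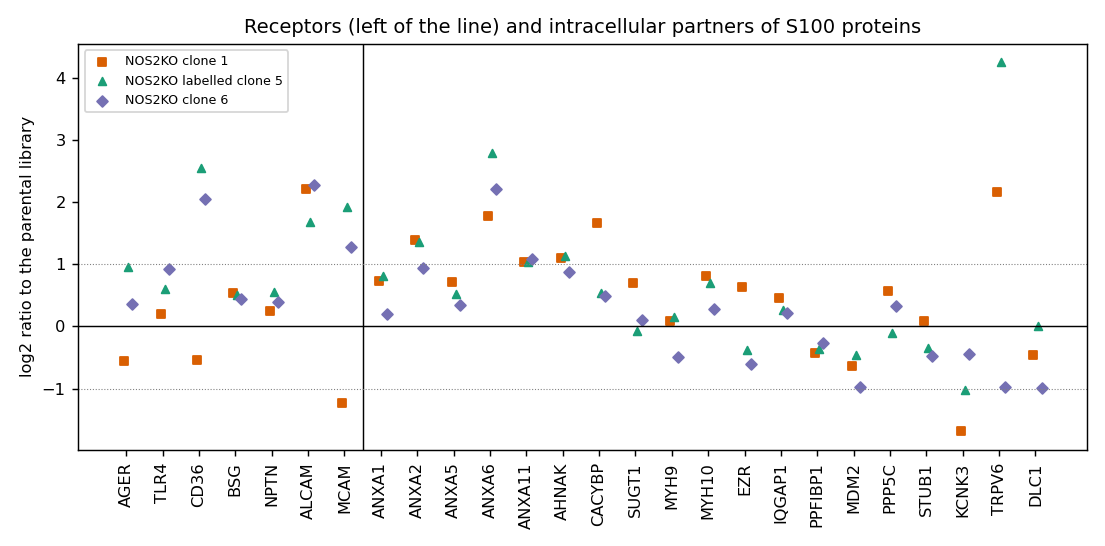
Log2 ratio of each NOS2KO clone to the parental library for 7 receptors and for intracellular partners of S100 proteins with a count in the parental library (1 is not drawn), 1 point per clone. Dotted lines mark 1 and -1, and the 3 clones lie above 0 for ANXA2 (0.94 to 1.39), ANXA6 (1.78 to 2.79) and ALCAM (1.68 to 2.28), while MCAM runs from -1.23 to 1.93.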

How the data were processed

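Poly(A)-enriched mRNA of 1 parental culture and 3 NOS2KO clones was sequenced as paired ends. The authors deposited raw counts per gene for 57500 Ensembl genes, 1 library per file, without normalization. Per the labels, the processing notes name bcl2fastq 2.17, Trimmomatic 0.36, STAR 2.5.2b and featureCounts of Subread 1.5.2 on GRCh38. The strand setting and the handling of reads with several matches are not given in the sources used here. Symbols came from GENCODE release 29, which gave one to 56898 genes.

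The test was edgeR 4.0.16 under R 4.3.3. Its filterByExpr, grouped by genotype, kept 22511 genes, followed by TMM, estimateDisp, glmQLFit and glmQLFTest with Benjamini-Hochberg adjustment over all of them. The spread between libraries came from the clones alone (2 residual degrees of freedom, common dispersion 0.319). The fit drew the spread of each gene towards that of the other genes (2.753 prior degrees of freedom). Standard errors came from the information matrix of the fit. Nothing says that libraries beyond the clones were replicated. The p-values thus rest on the spread between 3 clones, drawn towards that of other genes and taken to hold for the parental side. The fits and the intervals were tested on simulated data. Alternatives were scaling by RLE, by upper quartile or by library size only, a filter of 1 CPM or none, DESeq2 1.42.0, robust estimation, the bias-adjusted quasi-likelihood method and each clone left out. Python 3.11.15, scipy 1.17.1, pandas 2.3.3 and matplotlib 3.10.9 did the rest.

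The members, the lists and the rule for naming genes were chosen with earlier results of these data known. Named were the 10 S100 genes, NOS2, other S100 genes reaching 1 CPM, for each other list up to 5 genes that met the criterion, genes sharing exons with a member, and for the 2 members with the largest mean log2 ratio the 3 genes with the nearest pattern. S100A5, S100A12, AGER, MYH9, MCAM, the myeloid markers other than PTPRC and single cell line markers were named in addition after their values were seen. The values of 1 gene on the list of partners and 1 further promoter stretch are not reported here.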

Additional observations from a re-analysis of the deposited data

How the results depend on the processing

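Across RLE, upper quartile and library size scaling, both other filters, robust estimation and the bias-adjusted fit, S100A4, S100A10 and S100P met the criterion each time, and the adjusted p of every member stayed at or above 0.05 (0 genes). DESeq2's Wald test put 3 genes below it, S100A4, S100A10 and S100P, and 4 met the criterion, with S100A3 in addition, against 12.1% of all genes; the cause was not tested. With each clone left out, 3 to 4 genes met the criterion, which included S100A4, S100A10 and S100P each time. Without clone 1 these were 4 genes, against 15.5% of all genes tested. They were 4 without the library labelled clone 5, against 7.83%, and 3 without clone 6, against 6.61%. The median log2 fold change of the 10 genes lay between 0.02 and 1.30 in these fits. Without clone 1 the log2 fold change turned negative for S100A2 (-0.10), S100A8 (-1.44) and S100A16 (-0.26), as follows from leaving out the clone with the highest level. Over the 3 fits with a clone left out it reached 1.38 for S100A2, 1.26 for S100A8 and 0.27 for S100A16. No paired analysis was possible because the parental cells have 1 library and the clone numbers name clones. With 1 parental library the depth limits S100P in the clones (5 to 12 counts) and little else among the 10 genes.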

Other observations

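The 2 S100 genes with the largest mean log2 ratio among those with the same direction in all 3 clones were S100P and S100A4, and the genes nearest to them in their 3 log2 ratios to the parental library were sought among the 10708 genes that reached 10 CPM anywhere. All of these ratios share the parental library, and likeness over 3 clones is a description without a test. Nearest to S100A4 was TM4SF1, a tetraspanin-like surface protein of many carcinomas, at a Euclidean distance of 0.202 on the log2 scale. TM4SF1 had 54.0 CPM in the parental library and 484, 543 and 671 CPM in the clones 1, labelled 5 and 6. FAM167B (distance 0.320) and CDK15 (0.528) followed, both at about 1 CPM in the parental library (0.918 and 1.33 CPM). Nearest to S100P were INHBE, an inhibin beta subunit, at a distance of 1.03, then ADM2, a peptide hormone of the calcitonin family (1.85), and MUC5AC, a secreted mucin (2.06). MUC5AC had 15.4 CPM in the parental library and 0.0304 to 0.0698 CPM in the clones.

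CAV1, the caveolar coat gene on the list of mesenchymal markers, had 90.1 CPM in the parental library and 527, 463 and 313 CPM in the clones. Its log2 fold change was 2.27 (standard error 0.40, adjusted p = 0.323 in the edgeR quasi-likelihood fit). Of the 6 mesenchymal markers 5 were higher and 1, ZEB1, lower in all 3 clones, against 28.6% and 30.5% of all genes tested, and CAV1 alone met the criterion, against 9.58%. Of the 6 epithelial markers 2 were higher and 1 lower in all 3 clones, against 28.6% and 30.5% of all genes tested. Their median log2 fold change was 1.40, against 0.68 for the mesenchymal markers and 0.10 over all genes tested. It rests in part on low counts. CDH1 had 4 counts in parental cells, EPCAM 5 and KRT5 13, and none of these had a shared direction in the clones. Higher in all 3 clones were the partner keratins of simple epithelia KRT8, with 254 CPM in the parental library and 416, 806 and 525 CPM in the clones, and KRT18, with 303 CPM and then 419, 467 and 326 CPM, and neither met the criterion. KRT14, a keratin of basal cells, alone of the 6 met the criterion, on the lower side, against 5.34% of all genes tested. It had 358 counts in parental cells, against 24 for clone 1, 0 for clone 6 and 1 for the library labelled clone 5.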
